A study of Homo sapiens with 4 samples.

Results

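The intracellular sterol transfer genes examined here encode 10 proteins that carry cholesterol and related lipids between the membranes of a cell. They were NPC1, NPC2, STARD3, STARD4, STARD5, OSBP, OSBPL1A, OSBPL5, OSBPL8 and OSBPL9, chosen by name, and each was measured by every probe set (a group of short array probes summarized as 1 value) whose only gene symbol in the platform annotation was that gene. All 10 had exactly 1 such probe set, out of 18404 genes so named, and no probe set listed a member together with another gene. Total RNA of U87MG, an established human glioblastoma cell line, was hybridized to Affymetrix Human Gene 1.0 ST arrays. There were 2 arrays of cells transfected with an siRNA against CASP2, the gene of the protease caspase-2 (CASP2 siRNA), and 2 arrays of cells transfected with a control siRNA. The sample labels call the arrays of a group biological replicates and name Dharmacon as the source of the oligos, and the methods describe the control oligo of that supplier as a mutated version of the CASP2 oligo. Both groups were thus transfected, no untransfected cells were profiled, and the model is a single cell line with 1 silencing oligo.

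Cholesterol that enters a cell in lipoproteins is freed in late endosomes and lysosomes, where the soluble protein NPC2 hands it to the membrane protein NPC1 for export. From there, and from the endoplasmic reticulum (ER), where it is made and sensed, it moves mostly without vesicles, bound in the pocket of a transfer protein. Such transfer proteins include those with a START domain, such as STARD3, STARD4 and STARD5, and the OSBP-related proteins. STARD4 and STARD5 are soluble, whereas STARD3 and many OSBP-related proteins act at sites where membranes lie close together. Several OSBP-related proteins drive the transfer by exchanging sterol or phosphatidylserine for the lipid phosphatidylinositol 4-phosphate (PI4P). Cholesterol at the ER in turn sets the activity of SREBP2, the transcription factor of cholesterol synthesis and uptake genes.

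Silencing was visible in the target. CASP2 had log2 values of 8.79 and 8.52 with the CASP2 siRNA, against 10.74 and 10.69 with the control siRNA, a log2 fold change of -2.06 (SE 0.13, n = 2 arrays each). Across all 32321 probe sets, pairs of arrays correlated at r = 0.991 to 0.997, and the median difference between the CASP2 siRNA arrays was 0.182 on the log2 scale, larger than the 0.0875 between the control arrays. Of 7 glial and glioma markers, VIM and CD44 lay above the upper quartile of every array. NES and GFAP lay between the median and the upper quartile of every array, and OLIG2 lay above the median of only some arrays. SOX2 lay below the median and S100B below the lower quartile of every array. The markers were thus mixed, and the identity of the cells rests on the label. Of 18 probe sets for neuronal, immune, endothelial and epithelial markers, 15 did not lie above the median of every array. The exceptions were SYT1, SNAP25 and the lysosomal membrane protein CD68, the last above the upper quartile. None of these 25 marker probe sets had an unadjusted p under 0.05. In RNA of whole cultures, fewer cells of a kind and less RNA per cell cannot be told apart.

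None of the 10 sterol transfer genes differed detectably between CASP2 siRNA and control siRNA cells. No member passed an adjusted p of 0.05 in limma, a linear model that pools information on the spread between genes, and each had an adjusted p of 0.9999. The share of all 32321 probe sets that passed was 0%, and CASP2 itself did not pass (unadjusted p = 4.02e-05, limma). At an unadjusted p under 0.05, again 0 of 10 members were called higher and 0 of 10 lower, beside 1.54% and 1.49% of all probe sets, so an empty count among 10 genes was close to the background. With a fold above 1.5 added, the background in limma was 0.693%, and 0 members passed. The log2 fold changes of the members ran from -0.20 for STARD5 to 0.087 for NPC2. Their median was 0.027, beside 0.0022 over all probe sets and -0.021 over the 9836 with 1 symbol and at least the level of the dimmest member. Over these 9836, the median distance from the control mean was 0.022 on CASP2 siRNA replicate 1 and -0.067 on replicate 2. Of the 10 members, 7 lay above 0, beside 50.7% of all probe sets and 41.8% of these 9836.

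How closely the arrays bounded the changes depended on the test and on the arrays kept. For all 10 members the limma 95% confidence interval of the log2 fold change lay inside 1.5-fold in either direction, that is inside ±0.58 on the log2 scale. This held for 75.7% of all probe sets, and for 88.8% of the 9836 probe sets with 1 symbol whose mean level was at least that of the dimmest member, so it was usual for genes of this brightness. The intervals measure the spread between these arrays only. They depended on having both control arrays, since without either one 6 of 10 intervals stayed inside. The group comparison of the study's methods raises small standard deviations to the median over all probe sets. Under it 7 of 10 lay inside, and the intervals of NPC2, STARD5 and OSBPL5 reached 0.60, -0.71 and -0.62.

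**Figure D1:**
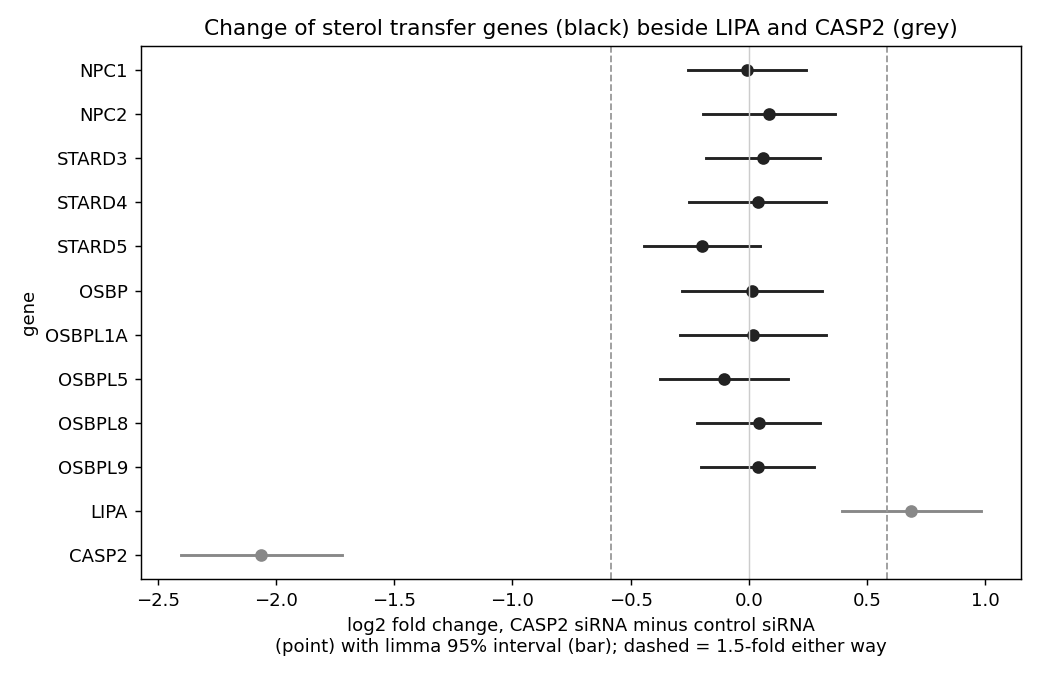
The x axis gives the log2 fold change between CASP2 siRNA and control siRNA cells for each sterol transfer gene (y axis, black) with its limma 95% confidence interval as a bar, beside LIPA and CASP2 in grey. All 10 bars lie between the dashed lines of 1.5-fold, from STARD5 at -0.20 to NPC2 at 0.087, whereas LIPA lies at 0.69 and CASP2 at -2.06. LIPA was chosen in the study for its increase on these arrays, so its bar is not a test.

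The pair that exports cholesterol from lysosomes showed no detectable difference. NPC1 (probe set 8022531, chromosome 18), the membrane exporter whose loss causes Niemann-Pick disease type C, had log2 values of 12.23 and 12.19 in CASP2 siRNA cells, against 12.26 and 12.18 in control siRNA cells. Both silenced arrays lay between the control arrays, and the log2 fold change was -0.0088 (SE 0.093, 95% confidence interval -0.26 to 0.24). NPC2 (probe set 7980146, chromosome 14), the soluble carrier that delivers cholesterol to NPC1, was at 11.85 and 11.69 in CASP2 siRNA cells and at 11.72 and 11.65 in control siRNA cells. Its first silenced array was above both control arrays and its second lay between them, which gave 0.087 (SE 0.10, interval -0.19 to 0.37), the largest positive value among the members. Without CASP2 siRNA replicate 2 the value for NPC2 was 0.16, and without replicate 1 it was 0.0086, so its size came from 1 array.

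LIPA, the lysosomal lipase that acts just before NPC2 and NPC1 by freeing cholesterol from its esters, was read on the same arrays at 10.41 and 10.27 with the CASP2 siRNA, against 9.58 and 9.72 with the control siRNA. Its log2 fold change was 0.69 (interval 0.39 to 0.98). LIPA was chosen in the study for its increase on these arrays, so this interval is not a test of it and none is added here. The paper also reports higher LIPA by quantitative RT-PCR in U87MG cells, including with another CASP2 siRNA and control, and in a fibroblast line.

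Of the START proteins, STARD5 stood farthest from 0 among all members. STARD5 (probe set 7990839, chromosome 15), a soluble START protein that binds cholesterol in the cytosol, had log2 values of 7.98 and 8.02 in CASP2 siRNA cells, against 8.17 and 8.23 in control siRNA cells. Both silenced arrays were below both control arrays, with a gap of 0.15 between the nearest pair, while the arrays within a group were 0.043 and 0.058 apart. The log2 fold change was -0.20 (SE 0.092, interval -0.44 to 0.048), or 0.873 times the control level (0.736 to 1.03). It did not pass (limma, unadjusted p = 0.092, adjusted p = 0.9999), and with each array left out in turn it ranged from -0.23 to -0.17 with no unadjusted p below 0.074. With 2 arrays a group, the smallest p that an exact permutation of the labels allows is 0.333 (two-sided).

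As the member with the largest difference, STARD5 is shown with the 250 bases before its start site (RefSeq, GRCh38.p14, chr15:81324142-81324391, minus strand, 5′ to 3′), where capitals mark the CCAAT box, found 2 times by a search of both strands.
STARD5 promoter: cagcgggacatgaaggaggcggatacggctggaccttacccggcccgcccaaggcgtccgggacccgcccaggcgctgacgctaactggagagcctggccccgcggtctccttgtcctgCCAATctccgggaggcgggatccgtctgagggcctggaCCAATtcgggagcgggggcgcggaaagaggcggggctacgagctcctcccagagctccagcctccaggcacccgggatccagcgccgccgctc

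Neither of the other START members showed a difference of that size. STARD3 (probe set 8006877, chromosome 17), which sits in the late endosome membrane and tethers it to the ER, was at 9.80 and 9.84 in CASP2 siRNA cells and at 9.77 and 9.75 in control siRNA cells. The silenced arrays were both above the control arrays, but by only 0.028 at the nearest pair, and the log2 fold change was 0.060 (SE 0.090, interval -0.18 to 0.30). STARD4, a cytosolic carrier that brings sterol to the ER and is itself a target of SREBP2, had values of 9.09 and 9.03 in CASP2 siRNA cells, within the 8.93 and 9.11 of control siRNA cells, and the log2 fold change was 0.037 (SE 0.11, interval -0.25 to 0.33). Its control arrays were the farthest apart of all members, by 0.18, and the sign turned without control siRNA replicate 1 (-0.051).

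The OSBP-related members fell on both sides of 0. OSBP (probe set 7948379, chromosome 11), which trades cholesterol for PI4P between the ER and the Golgi apparatus, had log2 values of 10.00 and 10.10 in CASP2 siRNA cells, inside the range of control siRNA cells at 9.95 and 10.13, and the log2 fold change was 0.014 (SE 0.11, interval -0.28 to 0.31). OSBPL9 (probe set 7901385, chromosome 1), a relative of OSBP at the Golgi apparatus, was at 11.47 and 11.51 in CASP2 siRNA cells, against 11.45 and 11.46 in control siRNA cells. The groups did not overlap for OSBPL9, yet the nearest arrays were 0.0077 apart, and the log2 fold change was 0.037 (SE 0.090, interval -0.20 to 0.28). OSBPL1A (probe set 8022572, chromosome 18), whose long form rides on late endosomes and responds to their cholesterol, had the widest gap between silenced arrays of any member, with 8.90 and 8.69 in CASP2 siRNA cells, one above and one below the 8.80 and 8.75 of control siRNA cells. Its log2 fold change of 0.017 (SE 0.12, interval -0.29 to 0.32) was thus a mean of 0.12 and -0.090 on the separate arrays.

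OSBPL5 and OSBPL8 are both anchored in the ER and exchange phosphatidylserine for PI4P at contacts with the plasma membrane. OSBPL5 (probe set 7945831, chromosome 11) had log2 values of 7.05 and 6.91 in CASP2 siRNA cells, against 7.07 and 7.11 in control siRNA cells. The silenced arrays were both lower, the first by just 0.013 from the nearest control array, and the log2 fold change was -0.11 (SE 0.10, interval -0.38 to 0.16). OSBPL8 (probe set 7965064, chromosome 12) was at 9.52 and 9.40 in CASP2 siRNA cells and at 9.43 and 9.41 in control siRNA cells, with 1 silenced array above and 1 below both controls. The log2 fold change of OSBPL8 was 0.041 (SE 0.097, interval -0.22 to 0.30).

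**Figure D2:**
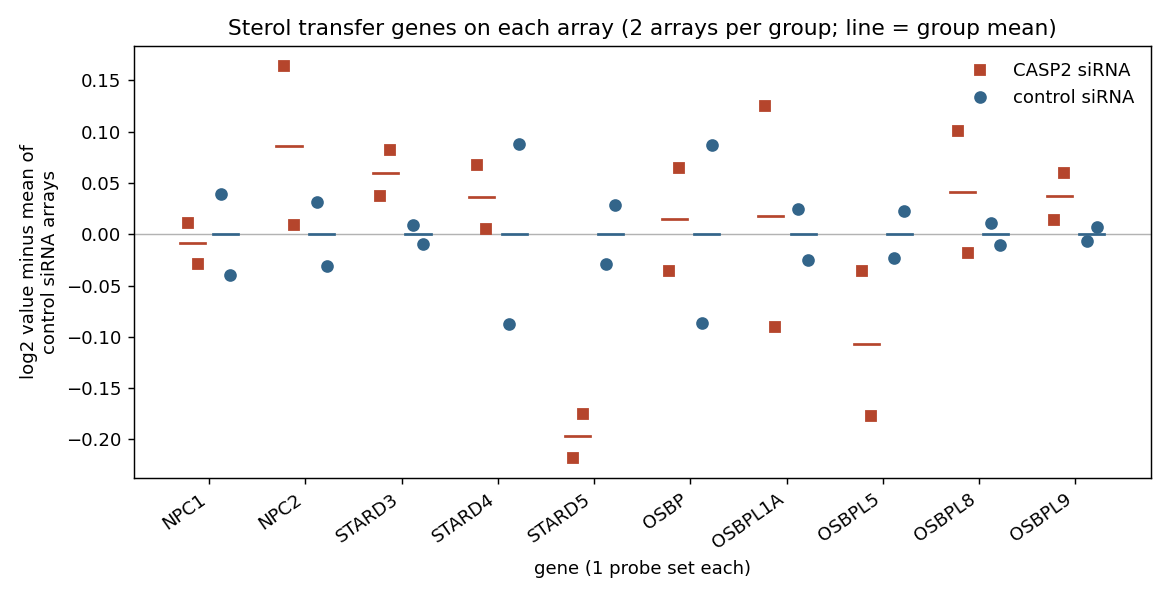
The y axis gives log2 values per array, set relative to the control siRNA mean, for the 10 sterol transfer genes (x axis). Squares are CASP2 siRNA arrays, circles are control siRNA arrays, short lines are group means, and only for STARD5 were both silenced arrays more than 0.1 away from both control arrays, at -0.22 and -0.18 from the control mean.

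Counted over all members, the silenced arrays lay both above the control arrays for 2 genes (STARD3 and OSBPL9) and both below for 2 (STARD5 and OSBPL5). Over all probe sets the shares were 14.5% above and 15.1% below. Among the 9836 with 1 symbol and at least the level of the dimmest member, 1459 lay above and 2217 below. Of the other 6 genes, OSBPL1A and OSBPL8 had 1 silenced array above and 1 below the control range, NPC2 had 1 above and 1 inside it, and NPC1, STARD4 and OSBP had both inside. The arrays of a group were farther apart in CASP2 siRNA than in control siRNA cells for 6 members, beside 70.1% of all probe sets. In 6 members the first silenced array read higher than the second, beside 53.4% of all probe sets and 73.5% of those with 1 symbol and at least the level of the dimmest member. The level of 8 members was above the upper quartile of every array, and that of STARD5 and OSBPL5 lay between the median and the upper quartile. Of all 32321 probe sets, 7695 lay above the upper quartile of every array. Of the 9836 with 1 symbol and at least the level of the dimmest member, 5649 did. Levels of different probe sets were not ranked, because probes differ in how strongly they bind.

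**Figure D3:**
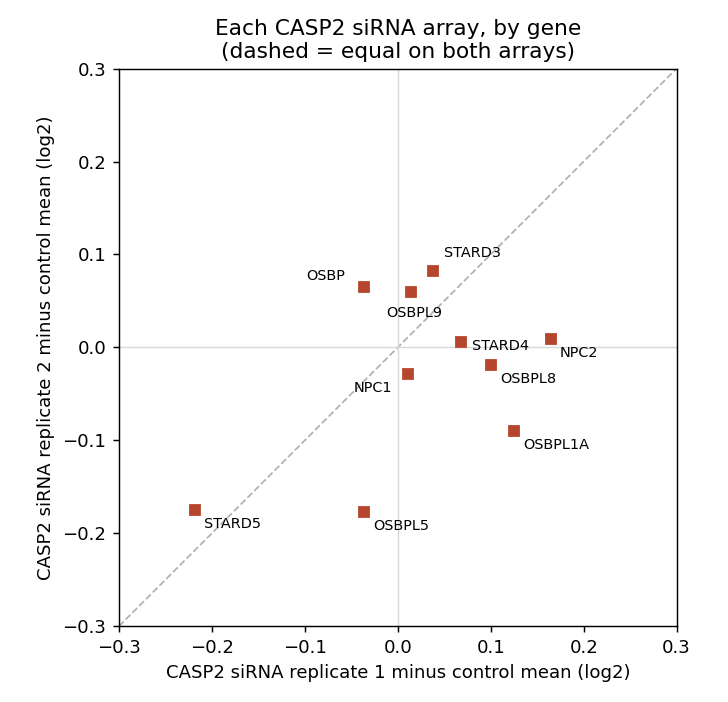
Each sterol transfer gene by its log2 value on CASP2 siRNA replicate 1 (x axis) and replicate 2 (y axis), both minus the mean of the control siRNA arrays; each square is 1 gene and the dashed line marks equal values. NPC1, OSBP, OSBPL1A and OSBPL8 differ in sign between the arrays, OSBPL1A the most (0.12 and -0.090), and STARD5 (-0.22 and -0.18) lies near the line.

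Sterol, lysosomal and general promoter motifs were looked for in the promoters of the members. The RefSeq table held 15 windows for the 10 genes, each from 250 bases before to 50 after a start site. The core of the sterol regulatory element, TCACCCCAC, was in 0 of the 15, beside 0.43% of 35116 windows of all genes, a share at which an empty count in 15 is usual. The core of the CLEAR element of lysosomal genes, TCACGTGA, was in 1 window, that of OSBPL8, beside 0.98% of all windows, and the E-box CACGTG inside it was in 2, of OSBPL8 and OSBPL1A, beside 7.26%. The CCAAT box was in 7 windows of 6 genes, beside 34.6%. Both strands were searched, a match is only a run of letters, and no match says only that these letters are not in the window. The OSBPL8 sequence is shown because it holds the only CLEAR core, in capitals (chr12:76559772-76560021, minus strand, 5′ to 3′).
OSBPL8 promoter: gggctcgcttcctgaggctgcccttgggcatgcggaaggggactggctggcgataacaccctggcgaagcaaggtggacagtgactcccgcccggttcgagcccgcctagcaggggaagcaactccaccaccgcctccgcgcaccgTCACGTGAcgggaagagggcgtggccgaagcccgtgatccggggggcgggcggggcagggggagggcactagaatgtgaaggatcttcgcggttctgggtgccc

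The rest of the OSBP-related family and the other sterol carriers did not pass the test either. Of 7 further OSBP-related genes, 4 lay below 0, with a median log2 fold change of -0.067 and a range of -0.17 to 0.065. OSBPL7 was at 7.20 and 7.18 in CASP2 siRNA cells, below the 7.34 and 7.31 of control siRNA cells (-0.13, interval -0.37 to 0.11). OSBPL11 had -0.17 (-0.58 to 0.24) and OSBPL6 -0.086 (-0.39 to 0.22), and in both the second silenced array was the lowest of the 4. This median turned to 0.020 without CASP2 siRNA replicate 2. On that array, 1-symbol probe sets of at least the dimmest member's level had a median of -0.067 from the control mean. Among 6 measured genes of other carriers the median was -0.014. STARD3NL, a relative of STARD3 that tethers late endosomes to the ER and lacks the START domain, had 10.36 and 10.24 in CASP2 siRNA cells, below the 10.47 and 10.44 of control siRNA cells (-0.15, interval -0.42 to 0.11). STAR, which brings cholesterol into mitochondria of steroid-making cells, lay below the median of every array and had -0.059 (-0.42 to 0.30). STARD6, a START protein of germ cells, lay below the lower quartile of every array and had 0.14 (-0.20 to 0.48).

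Transfer at contact sites also needs anchors in the ER and enzymes that make and remove PI4P, and these 8 genes had a median log2 fold change of 0.021. The kinases that make PI4P lay on both sides of 0. PI4K2A, the kinase of the Golgi apparatus and endosomes, was at 10.66 and 10.62 in CASP2 siRNA cells, against 10.48 and 10.59 in control siRNA cells (0.10, interval -0.15 to 0.36). PI4KA, the kinase of the plasma membrane, was at 9.66 and 9.70, against 9.76 and 9.81 in control siRNA cells (-0.10, interval -0.35 to 0.14). PI4K2B, a relative of PI4K2A, had -0.084 (-0.33 to 0.16). The other 5, among them the anchors VAPA and VAPB, ranged from -0.0090 to 0.092.

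Late endosomes hold the partners of NPC1 and NPC2, and their 11 probe sets, for 10 genes, had a median log2 fold change of -0.0060. Apart from LIPA, which was selected on these arrays, no probe set of the surrounding lists had an unadjusted p under 0.05. NPC1L1, listed as the intestinal relative of NPC1 rather than as a partner, lay below the median of every array. It had 5.74 and 6.10 in CASP2 siRNA cells against 5.72 and 5.82 in control siRNA cells (0.15, interval -0.26 to 0.56). SCARB2, a lysosomal membrane protein that binds cholesterol, had 0.061 (-0.20 to 0.32).

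The SREBP2 axis was a list of target genes of SREBP2 together with SREBF2, its own gene, and its partner SCAP. The 6 measured genes had a median of 0.12, with 5 above 0, and none passed the test. Above 0 were 50.7% of all probe sets and 41.8% of those with 1 symbol and at least the dimmest member's level. SREBF2 had 0.012 and SCAP -0.014. The median was 0.067 without control siRNA replicate 1 and 0.17 without control siRNA replicate 2. HMGCS1, an early enzyme of cholesterol synthesis, was at 10.32 and 10.41 in CASP2 siRNA cells, above the 10.07 and 10.21 of control siRNA cells (0.22, interval -0.055 to 0.50). INSIG1, which holds SREBP2 at the ER when sterol is plentiful, had 0.16 (-0.13 to 0.45), and SQLE, which oxidizes squalene, had 0.12 (-0.14 to 0.38). In 4 of the 6 genes, SREBF2 and SCAP not among them, the silenced pair lay wholly above the control pair. This held for 14.5% of all probe sets and for 1459 of the 9836 with 1 symbol and at least the dimmest member's level. STARD4 (probe set 8113491, chromosome 5), the member under SREBP2 control, had silenced arrays inside its control range, and its interval overlapped those of HMGCS1, INSIG1 and SQLE.

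**Figure D4:**
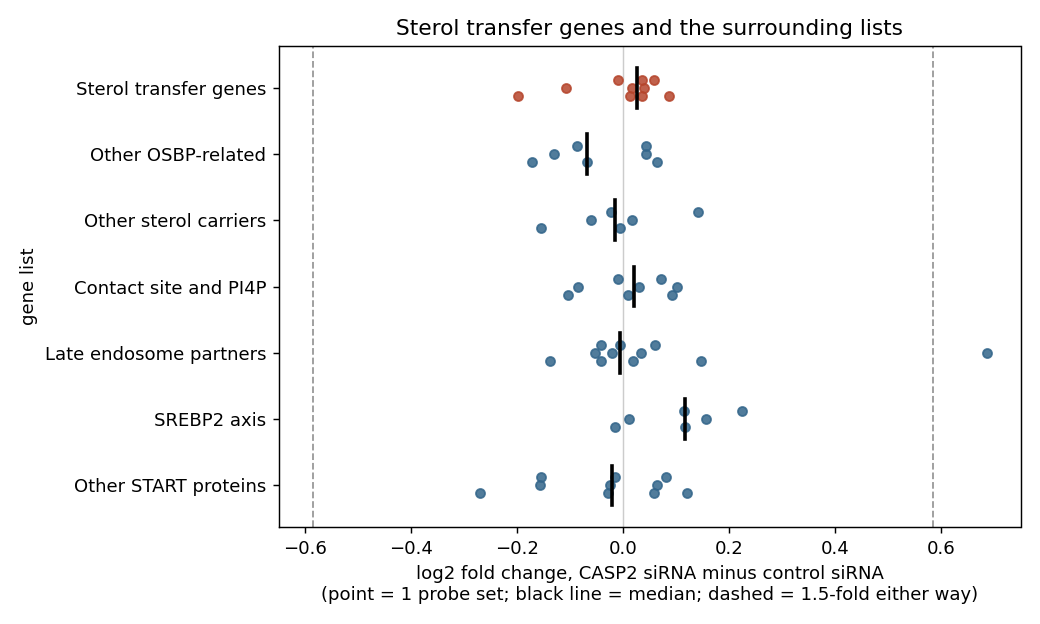
The x axis gives the log2 fold change between CASP2 siRNA and control siRNA cells for each probe set, by gene list (y axis); red points are the sterol transfer genes, blue points the surrounding lists, black lines medians and dashed lines 1.5-fold. Every point lies between the dashed lines except LIPA at 0.69, and the medians run from -0.067 for the other OSBP-related genes to 0.12 for the SREBP2 axis.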

How the data were processed

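The authors deposited a table of log2 values, with 1 row per probe set, made by Robust Multi-Array Average (RMA): background correction, equalization of probe values between arrays and a summary per probe set. A change of all genes one way is thereby largely removed. No source used here gives the RMA version. All 4 columns were mapped to samples by their labels. Symbols came from the platform annotation, updated by gene ID through RefSeq (GRCh38.p14) for 19128 of 19158 probe sets with 1 symbol. SCP2 and some other genes of the surrounding lists are not reported here.

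All 32321 probe sets were fitted with limma 3.58.1 (lmFit, eBayes, two-sided) in R 4.3.3, CASP2 siRNA minus control siRNA, with Benjamini-Hochberg adjustment over all of them and 95% intervals. The fit was checked on simulated data. Folds are on the scale of RMA values. The number of arrays limits the precision. Named in the text are all 10 members, CASP2 and, in each of 6 surrounding lists, the 3 probe sets of largest absolute limma statistic. VAPA, VAPB, SREBF2, SCAP and the markers were named besides. The members and lists were chosen with earlier results of these data known. Alternatives were the methods' t-test (pooled standard deviation raised to its median), trend and robust options, quantile normalization, median centring, leaving out the dimmest 25% of probe sets, the replicate number as a block, the brightest probe set per gene and each array left out in turn.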

Additional observations from a re-analysis of the deposited data

How the results depend on the processing

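No member passed an adjusted or an unadjusted p of 0.05 in the alternatives that kept all 4 arrays. In these, the probe sets with an unadjusted p under 0.05 numbered from 100 (the methods' t-test) to 1239 (limma, trend and robust options). For fits without 1 array, the folds of the members are given. Of 100 combinations of gene and alternative, the fold could move in 60, and in 10 of these its sign turned. The sign held in these for NPC2, STARD3, STARD5, OSBPL5 and OSBPL9. Leaving out single arrays gave log2 fold changes of -0.048 to 0.031 for NPC1, -0.051 to 0.12 for STARD4, -0.072 to 0.10 for OSBP, -0.090 to 0.12 for OSBPL1A and -0.019 to 0.10 for OSBPL8. With arrays centred on their median, OSBP had -0.0052 and OSBPL1A -0.0022. The median of the members ranged from -0.0067 to 0.037 with each array left out. The members above both controls numbered 2 to 5 and those below 2 to 4 when an array was left out, 1 above and 1 below after median centring, and 3 above and 1 below after quantile normalization. Fewer arrays make separation easier, and no share of all probe sets was taken in these settings. These counts are therefore not read as a result about the members. The intervals inside 1.5-fold numbered 6 to 10, and 7 under the methods' t-test, an alternative chosen after seeing the data.

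The labels give both groups the replicate numbers 1 and 2 without saying that a number marks a shared day or batch, and the deviations of same-numbered arrays correlated at 0.020. With the replicate block, 10 of 10 intervals lay inside 1.5-fold, and the interval of STARD5 was -0.52 to 0.12; the block cannot move the folds of this balanced design. Over all probe sets, 107 were higher and 117 lower past 1.5-fold with an unadjusted p under 0.05. The methods' t-test gave 35 and 37, and leaving out each array gave 118 to 414 and 157 to 592. No probe set passed an adjusted p of 0.05 in limma (979 had an unadjusted p under 0.05), and none did under the methods' t-test (100 at an unadjusted p under 0.05). For CASP2 the log2 fold change ranged from -2.20 to -1.93 with each array left out.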

Other observations

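START proteins that carry other lipids or act in signalling were measured by 10 probe sets for 8 genes, and their median log2 fold change was -0.020, with 0 past an unadjusted p of 0.05. STARD8, a signalling protein with a START domain, was at 8.22 and 7.97 in CASP2 siRNA cells, below the 8.33 and 8.39 of control siRNA cells, a log2 fold change of -0.27 with a 95% confidence interval of -0.60 to 0.060. Its relative DLC1 was at 5.73 and 5.66 in CASP2 siRNA cells, also below the 5.89 and 5.81 of control siRNA cells (-0.16, interval -0.41 to 0.10). STARD13, of the same family, had 7.39 and 7.07 in CASP2 siRNA cells and 7.39 and 7.38 in control siRNA cells, with 1 low silenced array. STARD10, a phospholipid carrier, was at 7.08 and 7.01 in CASP2 siRNA cells, above the 6.93 and 6.93 of control siRNA cells (0.12, interval -0.12 to 0.37). CERT1, which carries ceramide to the Golgi apparatus, had -0.024 (-0.28 to 0.23). STARD13 and CERT1 were named after their values were seen.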
